A study of Mus musculus with 12 samples.

Results

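The genes followed here encode subunits of RNA polymerase I and the factors that process ribosomal RNA and assemble it into ribosomal subunits, in donor CD4+ and CD8+ T cells taken from the liver of transplanted mice. They were chosen by name from the 25078 genes of the count table: symbols beginning with Polr1, or with Utp, Nop or Rrp and a digit, together with Imp3, Imp4, Nob1, Bop1, Pes1, Wdr12, Fbl, Dkc1, Nolc1 and Npm1, each with at least 10 counts in every library. The names matched 42 genes and 41 had the counts. Utp14b, at 1 to 29 counts per library, was left out. By role, 5 members are RNA polymerase I subunits, 19 belong to the small subunit processome and the maturation of the small subunit RNA, 6 to the box C/D and box H/ACA ribonucleoproteins, and 10 to large subunit assembly. Npm1, a nucleolar chaperone, was kept on its own.

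RNA polymerase I transcribes the ribosomal DNA in the nucleolus as one long precursor, which is methylated and pseudouridylated at sites picked by small nucleolar RNAs, cut, folded with ribosomal proteins and exported as small and large subunits. The small subunit processome forms on the 5′ part of that precursor, and the PeBoW complex (Pes1, Bop1 and Wdr12) acts on the large subunit side. A T cell that has met its antigen grows before it divides, and raises the output of this pathway; the transcription factor MYC binds and activates many of its genes in growing cells.

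Lethally irradiated BALB/c mice received marrow depleted of T cells from WT C57BL/6 mice, together with T cells of C57BL/6 donors of 1 of 3 genotypes. These were WT, STAT3-/- (STAT3 fl/fl with CD4-Cre, which removes STAT3 from CD4+ and CD8+ T cells alike) and STAT3-/-PD-1-/-, the same STAT3 deletion crossed with mice that lack PD-1 in every cell. On day 6 after hematopoietic cell transplantation (HCT), donor T cells (H-2Kb+TCRβ+) were sorted from the liver as CD4+ or CD8+ cells, and RNA-Seq was run on 2 libraries for each genotype and subset, 12 in all. Each library is a pool of 3 recipients, and the CD4+ and CD8+ cells of 1 genotype and number came from the same livers. No donor lacked PD-1 alone, so the effect of PD-1 is seen here only in T cells without STAT3. The question the design puts to these genes is how they stood in STAT3-deficient T cells, and whether removal of PD-1 moved them.

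The libraries held 21676125 to 24551477 counts on genes, and the 41 members took between 0.223% and 0.382% of them. Levels are given as counts scaled to library size after TMM normalization (CPM), replicate 1 before replicate 2, and comparisons between genes use RPKM, which divides by gene length. A gene was called at an adjusted p under 0.05 by edgeR (quasi-likelihood test, Benjamini-Hochberg adjusted) over all genes of the subset, 11959 in CD4+ and 12002 in CD8+ T cells. With 2 pools against 2, an exact 2-sided permutation test of 1 gene cannot give a p below 0.333, so calls rest on the model fitted across genes. Its p-values are set against the spread between the pools of a group. The fit had no term for the replicate number, so any shift that same-numbered libraries share is part of that spread. In bulk RNA, fewer cells that express a gene and less of its RNA per cell cannot be told apart.

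The labels were checked first on the deleted genes. Stat3 in CD4+ T cells was at 362 and 466 CPM in the WT, 138 and 164 in the STAT3-/- and 157 and 222 in the STAT3-/-PD-1-/- libraries. The CD8+ T cells had Stat3 at 396 and 387 CPM in the WT, 148 and 136 in the STAT3-/- and 154 and 238 in the STAT3-/-PD-1-/- libraries. Every library of the STAT3-deleted genotypes lay below both WT libraries. A floxed allele loses only some exons, so the reads that remain say nothing of the protein. Pdcd1, which encodes PD-1, was at 242 and 235 CPM in the WT, 257 and 323 in the STAT3-/- and 55.1 and 26.3 in the STAT3-/-PD-1-/- libraries in CD4+ T cells, and at 375 and 309.7 CPM in the WT, 422 and 458 in the STAT3-/- and 93.95 and 66.5 in the STAT3-/-PD-1-/- libraries in CD8+ T cells. It fell in STAT3-/-PD-1-/- against WT T cells of both subsets (log2 fold change -2.55, SE 0.33, adjusted p = 0.00566 in CD4+; log2 fold change -2.09, SE 0.19, adjusted p = 0.00243 in CD8+). The subsets bore their defining markers. Cd4 ran from 1256 to 1888 CPM in CD4+ libraries and from 0.355 to 2.78 in CD8+ libraries, and Cd8a from 597 to 1349 in CD8+ and from 0.417 to 5.70 in CD4+ libraries, with the highest of these last values in STAT3-/-PD-1-/- replicate 2.

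The set as a whole was highest in STAT3-/-PD-1-/- T cells in both subsets. Relative to the mean of the WT libraries of the same subset, the median member in CD4+ T cells was at a log2 difference of 0.02 and -0.02 in the WT libraries, -0.11 and -0.23 in the STAT3-/- libraries, and 0.22 and 0.26 in the STAT3-/-PD-1-/- libraries. The medians in CD8+ T cells were 0.04 and -0.04 in WT, -0.05 and -0.19 in STAT3-/-, and 0.31 and 0.30 in STAT3-/-PD-1-/- libraries. In each subset the order of the library medians was the same, with both STAT3-/- libraries below both WT libraries and both STAT3-/-PD-1-/- libraries above them. The share of all counts that fell on the members followed that order: in CD8+ T cells it was 0.291% and 0.282% in WT, 0.273% and 0.247% in STAT3-/-, and 0.382% and 0.380% in STAT3-/-PD-1-/- libraries, and in CD4+ T cells 0.273% and 0.264%, 0.255% and 0.223%, and 0.325% and 0.340%.

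**Figure D1:**
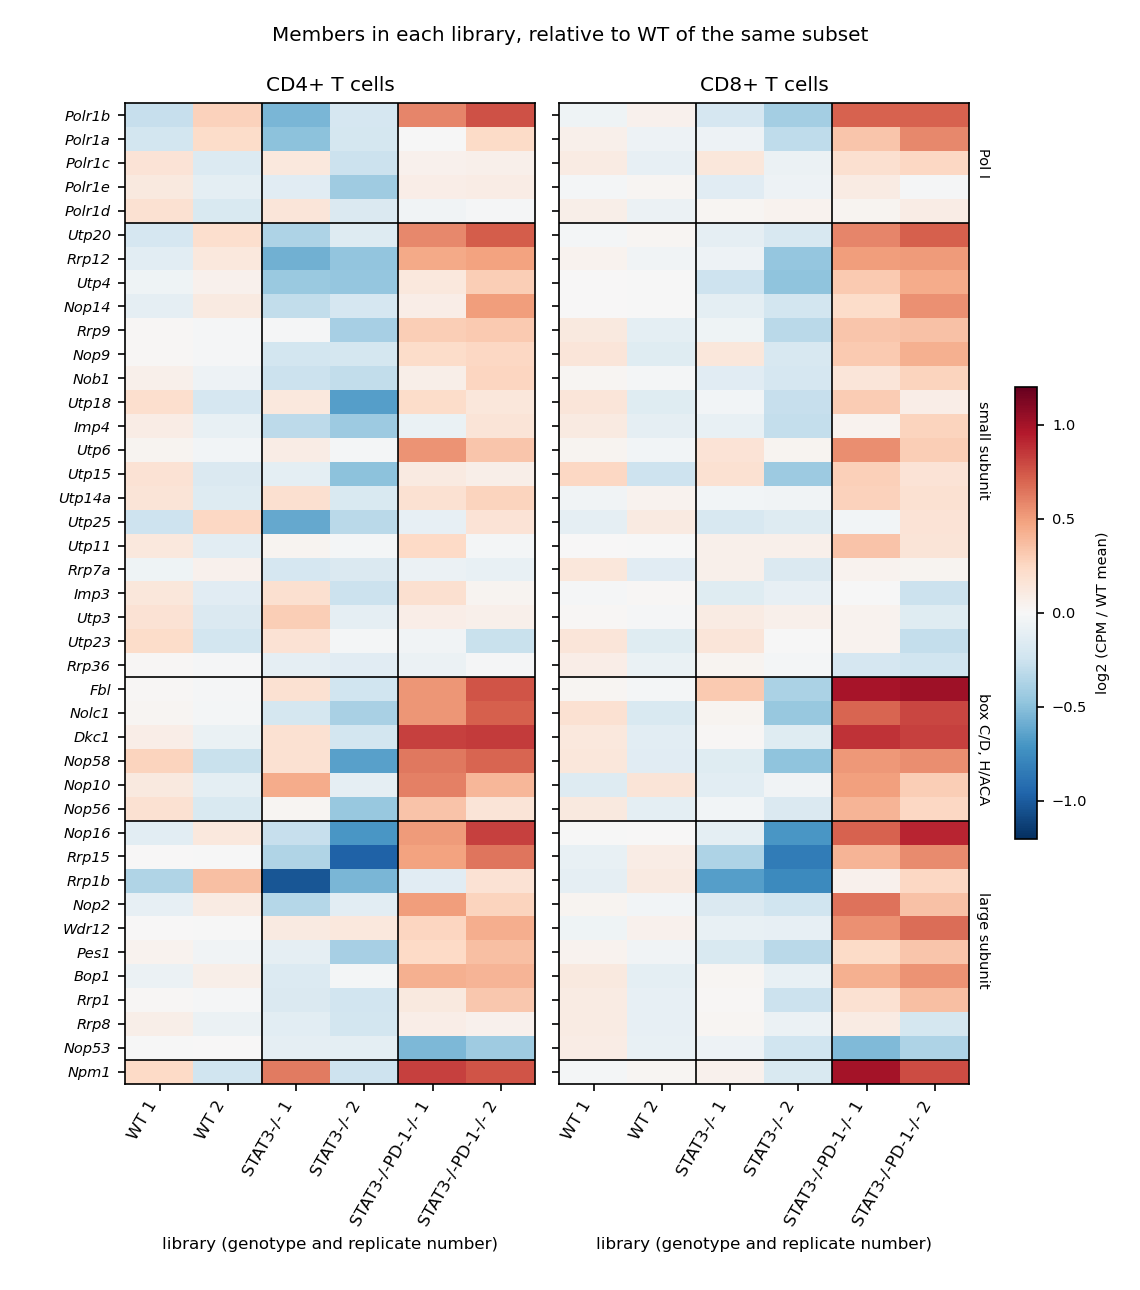
Level of each of the 41 members (rows, grouped by role) in each of the 12 libraries (columns), as log2 of CPM over the mean of the WT libraries of the same subset, shown by colour. Most rows are red in the STAT3-/-PD-1-/- columns of both subsets, where the library medians are 0.22 to 0.31, and pale or blue in the STAT3-/- columns, and Nop53 runs the other way.

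The promoter windows of members that moved together are shown because part of them shares a sequence, CACGTG, known as the E-box to which MYC and other factors of its family can bind. RefSeq entries of build GRCm38.p6, which run from 250 bases before to 50 bases after a start site, were matched by symbol for 33 of the 41 members. CACGTG, which reads the same on both strands, was present for 8 of the 33 (24.2%): Imp4, Nop2, Pes1, Rrp7a, Utp18, Utp20, Utp25 and Utp4. For comparison it was present for 8.09% of the 27025 genes with an entry and for 11.7% of the 9730 such genes among those tested. Each window below is written 5′ to 3′ along the gene, in lower case with CACGTG in capitals. Utp20, Utp4, Nop2 and Pes1 are the 4 members with the motif that rose in STAT3-/-PD-1-/- against STAT3-/- CD8+ T cells, and Polr1b is a member that rose in both subsets and has no CACGTG in its window.
Utp20 (chr10:88826765-88827064, reverse strand): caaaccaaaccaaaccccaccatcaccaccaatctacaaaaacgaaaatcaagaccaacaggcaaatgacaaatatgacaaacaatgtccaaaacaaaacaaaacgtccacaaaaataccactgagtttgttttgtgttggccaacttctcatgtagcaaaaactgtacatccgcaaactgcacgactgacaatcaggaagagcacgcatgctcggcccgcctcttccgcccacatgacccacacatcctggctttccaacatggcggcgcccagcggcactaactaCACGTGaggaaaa
Utp4 (chr8:106893390-106893689, forward strand): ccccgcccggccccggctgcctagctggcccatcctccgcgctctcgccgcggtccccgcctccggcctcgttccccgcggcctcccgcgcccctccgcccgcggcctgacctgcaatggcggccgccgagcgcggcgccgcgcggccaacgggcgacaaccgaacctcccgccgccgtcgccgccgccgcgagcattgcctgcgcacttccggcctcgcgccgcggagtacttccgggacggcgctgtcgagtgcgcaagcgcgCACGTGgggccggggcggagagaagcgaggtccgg
Nop2 (chr6:125131633-125131932, forward strand): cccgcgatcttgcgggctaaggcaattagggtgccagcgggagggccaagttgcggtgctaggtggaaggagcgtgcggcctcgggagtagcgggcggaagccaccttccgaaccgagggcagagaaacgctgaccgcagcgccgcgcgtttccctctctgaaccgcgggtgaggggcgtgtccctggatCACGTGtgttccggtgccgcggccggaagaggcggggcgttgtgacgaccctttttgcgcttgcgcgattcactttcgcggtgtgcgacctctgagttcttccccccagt
Pes1 (chr11:3963725-3964024, forward strand): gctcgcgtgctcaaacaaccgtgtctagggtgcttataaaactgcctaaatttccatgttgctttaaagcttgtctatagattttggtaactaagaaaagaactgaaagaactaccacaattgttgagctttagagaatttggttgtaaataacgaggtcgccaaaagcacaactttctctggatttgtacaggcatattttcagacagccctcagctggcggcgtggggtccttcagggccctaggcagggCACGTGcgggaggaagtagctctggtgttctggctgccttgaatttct
Polr1b (chr2:129100746-129101045, forward strand): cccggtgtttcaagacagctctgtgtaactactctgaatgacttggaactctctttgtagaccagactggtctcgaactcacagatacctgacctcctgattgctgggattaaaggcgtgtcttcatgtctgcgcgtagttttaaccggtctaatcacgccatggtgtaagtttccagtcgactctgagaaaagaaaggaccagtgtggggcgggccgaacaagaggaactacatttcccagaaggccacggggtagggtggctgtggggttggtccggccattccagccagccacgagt
The first base of the motif lies 37 bases after the start site of Utp20, 15 after that of Utp4, 2 after that of Pes1 and 60 before that of Nop2. The difference between the 8 members with the motif and the 25 without it was not tested. In STAT3-/-PD-1-/- against STAT3-/- T cells the median log2 fold change was 0.44 with and 0.43 without the motif in CD8+, with 4 of 8 and 10 of 25 called (where 8.76% of all genes rose), and 0.52 and 0.45 in CD4+, with 2 of 8 and 5 of 25 called (where 6.05% of all genes rose). Against WT it was 0.24 with and 0.33 without the motif in CD8+ and 0.19 and 0.22 in CD4+ T cells, and for STAT3-/- against WT -0.18 and -0.12, and -0.26 and -0.20. The letters TATAAA, searched on both strands, were present for 3 of 33 members (9.09%) and for 8.63% of the genes tested, and the palindromic motif of NRF1 for 0 of 33 members and 2.44% of the genes tested. A match of letters is no measurement of binding.

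STAT3-/- against WT T cells gave no called member in either subset with edgeR without a block. In CD4+ T cells 33 of 41 members were lower and 8 higher. Their median log2 fold change was -0.20 against 0.01 over all genes tested, and 0.334% of all genes were called. The libraries did not overlap, and were lower in STAT3-/-, for 20 members (48.8%), where 18.9% of all genes were lower in that way, and the unadjusted p was under 0.05 for 5 members, all lower (12.2%, against 5.25% of all genes). Of the 41 members in CD8+ T cells 33 were again lower and 8 higher, the median was -0.12 against -0.01 over all genes, 0.0583% of all genes were called, and 16 members (39%, against 21.1% of all genes) were lower without overlap. The medians depended on the STAT3-/- libraries: without replicate 1 they were -0.23 in CD4+ and -0.20 in CD8+ T cells, and without replicate 2 they were -0.12 and -0.054. At an unadjusted p under 0.05 there were 3 CD8+ members, all lower (7.32%, against 4.95% of all genes). The members with the lowest p were Rrp12 (log2 fold change -0.53, SE 0.16, adjusted p = 0.263) and Utp4 (log2 fold change -0.46, SE 0.15, adjusted p = 0.304) in CD4+, and Rrp1b (log2 fold change -0.71, SE 0.13, adjusted p = 0.208) and Rrp15 (log2 fold change -0.59, SE 0.19, adjusted p = 0.344) in CD8+ T cells. The 2 subsets come from the same recipients, so that the like direction in both is not an independent repeat. DESeq2, run as another test, called no member in CD4+ T cells and 1 in CD8+ T cells, Rrp1b, lower in STAT3-/-. With the replicate number as a block, edgeR called Rrp1b lower in CD4+ T cells, where 303 genes were called in all. It called no member in CD8+ T cells with that block.

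STAT3-/-PD-1-/- against STAT3-/- T cells gave the widest difference. In CD8+ T cells 35 of 41 members were higher, 18 (43.9%) rose and none fell, where 8.76% of all genes rose and 8.05% fell. The median log2 fold change was 0.43 against 0.00 over all genes, and 32 members (78%) were higher without overlap of the libraries, where 32.5% of all genes were. In CD4+ T cells 37 members were higher, 8 (19.5%) rose and none fell (15 rose with DESeq2, and 23 rose and Nop53 fell with the replicate block), where 6.05% of all genes rose and 5.03% fell, the median was 0.45 against -0.01 over all genes, and 32 members (78%, against 29.6% of all genes) were higher without overlap. Between libraries of the same number the median was 0.38 and 0.60 in CD8+ and 0.32 and 0.55 in CD4+ T cells for replicates 1 and 2. The medians stayed between 0.35 and 0.56 when any 1 library was left out, but the calls did not: without STAT3-/-PD-1-/- replicate 2 no member was called in either subset (where 2 genes in all were called in CD8+ and 0 in CD4+ T cells), without STAT3-/-PD-1-/- replicate 1 the counts were 9 in CD8+ and 0 in CD4+, and without STAT3-/- replicate 2 they were 3 and 3.

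Against WT, STAT3-/-PD-1-/- CD8+ T cells again had 35 of 41 members higher; 10 (24.4%) rose and none fell, where 9.01% of all genes rose and 8.21% fell. The median log2 fold change was 0.33 against 0.00 over all genes, and 27 members (65.9%, against 30.8% of all genes) were higher without overlap. In CD4+ T cells 35 members were higher with a median of 0.22 against -0.01, and 22 (53.7%, against 31% of all genes) did not overlap, but only Dkc1 and Nolc1 were called. That is 4.88% of the members, where 7.21% of all genes rose and 5.65% fell. This count in CD4+ T cells depended on the fit: DESeq2 called 4 members higher and Nop53 lower, and edgeR with the replicate number as a block called 11 higher and Nop53 lower, with more calls among all genes as well. Without STAT3-/-PD-1-/- replicate 2 no member was called in either subset, without its replicate 1 there were 0 in CD4+ and 2 in CD8+ T cells, and without WT replicate 1 or 2 there were 0 in CD4+ and 3 or 1 in CD8+ T cells. The comparisons with WT and with STAT3-/- share the STAT3-/-PD-1-/- libraries, so their values are set side by side and not counted as separate evidence.

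Of the 5 RNA polymerase I subunits that carry a Polr1 symbol, Polr1b and Polr1a were called in at least 1 comparison. Polr1b, the second largest subunit, which forms the active site together with Polr1a, was at 23.1 and 33.7 CPM in the WT, 19.1 and 24.3 in the STAT3-/- and 41.9 and 47.4 in the STAT3-/-PD-1-/- libraries in CD4+ T cells. For CD8+ T cells the levels were 29.8 and 32.03 CPM in the WT, 26.8 and 23.3 in the STAT3-/- and 50.5 and 50.6 in the STAT3-/-PD-1-/- libraries. Both STAT3-/-PD-1-/- libraries lay above all others of their subset. Polr1b rose against STAT3-/- in CD4+ (log2 fold change 1.04, SE 0.23, adjusted p = 0.0320) and in CD8+ T cells (log2 fold change 1.01, SE 0.13, adjusted p = 0.00654), and against WT in CD8+ T cells (log2 fold change 0.71, SE 0.13, adjusted p = 0.0145). Polr1a, the largest, catalytic subunit, was at 79.9 and 108 (WT), 66.0 and 80.5 (STAT3-/-), and 92.8 and 109 CPM (STAT3-/-PD-1-/-) in CD4+ and at 87.3 and 80.1 (WT), 80.3 and 67.9 (STAT3-/-), and 105 and 125 CPM (STAT3-/-PD-1-/-) in CD8+ T cells. In CD8+ T cells its STAT3-/-PD-1-/- libraries stood above all others and it rose against STAT3-/- (log2 fold change 0.63, SE 0.14, adjusted p = 0.0282), while in CD4+ T cells WT replicate 2 came within their range (log2 fold change 0.46 against STAT3-/-, adjusted p = 0.169). Polr1e, a subunit particular to this polymerase that acts in initiation and elongation, was at 29.6 and 25.2 (WT), 24.9 and 20.4 (STAT3-/-), and 28.8 and 29.0 CPM (STAT3-/-PD-1-/-) in CD4+ and at 31.0 and 31.9 (WT), 28.6 and 30.2 (STAT3-/-), and 33.6 and 31.2 CPM (STAT3-/-PD-1-/-) in CD8+ T cells, and its log2 fold change against STAT3-/- was 0.35 and 0.14, not called. Polr1c and Polr1d, which RNA polymerase III shares, were called in no comparison. Per length these 5 ran from a median of 7.81 RPKM for Polr1b to 63.0 for Polr1d.

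The small subunit processome was led by 3 genes. Utp20, a very large scaffold protein of the processome, was at 50.9 and 67.0 CPM in the WT, 45.1 and 52.4 in the STAT3-/- and 86.8 and 96.3 in the STAT3-/-PD-1-/- libraries in CD4+ T cells and at 68.3 and 70.4 (WT), 64.3 and 60.7 (STAT3-/-), and 104 and 114 CPM (STAT3-/-PD-1-/-) in CD8+ T cells. All 4 STAT3-/-PD-1-/- libraries exceeded the other 8. Utp20 rose against STAT3-/- in CD4+ (log2 fold change 0.91, SE 0.18, adjusted p = 0.0263) and CD8+ T cells (log2 fold change 0.80, SE 0.11, adjusted p = 0.00828), and against WT in CD8+ (log2 fold change 0.65, SE 0.11, adjusted p = 0.0129). Rrp12, which takes part in the export of both subunits and is counted here with the small subunit, was at 43.0 and 51.3 (WT), 31.4 and 33.8 (STAT3-/-), and 64.4 and 65.6 CPM (STAT3-/-PD-1-/-) in CD4+ and at 56.8 and 53.4 (WT), 52.8 and 40.0 (STAT3-/-), and 78.0 and 78.4 CPM (STAT3-/-PD-1-/-) in CD8+ T cells. It stood in order STAT3-/-, WT and STAT3-/-PD-1-/- without overlap in both subsets, and rose against STAT3-/- in CD4+ (log2 fold change 0.99, SE 0.16, adjusted p = 0.0135) and CD8+ T cells (log2 fold change 0.75, SE 0.15, adjusted p = 0.0211). Utp4, of the subcomplex that joins the nascent precursor first, was at 56.3 and 60.2 (WT), 42.8 and 42.1 (STAT3-/-), and 63.5 and 71.7 CPM (STAT3-/-PD-1-/-) in CD4+ and at 66.8 and 66.3 (WT), 56.0 and 47.5 (STAT3-/-), and 82.9 and 90.5 CPM (STAT3-/-PD-1-/-) in CD8+ T cells, in the same order without overlap, and was called in both subsets against STAT3-/-.

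The rest of the small subunit group moved less. Nop14, a processome component, was at 43.9 and 50.997 (WT), 38.4 and 41.1 (STAT3-/-), and 49.9 and 67.0 CPM (STAT3-/-PD-1-/-) in CD4+ and at 54.6 and 54.4 (WT), 50.1 and 46.8 (STAT3-/-), and 63.5 and 79.5 CPM (STAT3-/-PD-1-/-) in CD8+ T cells. It rose against STAT3-/- in CD8+ T cells (log2 fold change 0.56, adjusted p = 0.0372), and in CD4+ T cells the value was of the same size but not called (0.56, adjusted p = 0.0985). Utp15, a partner of Utp4 in its subcomplex, was at 82.1 and 64.8 (WT), 67.3 and 51.8 (STAT3-/-), and 78.5 and 76.6 CPM (STAT3-/-PD-1-/-) in CD4+ and at 87.4 and 62.0 (WT), 83.4 and 54.3 (STAT3-/-), and 90.0 and 82.5 CPM (STAT3-/-PD-1-/-) in CD8+ T cells. Its log2 fold change against STAT3-/- was 0.38 and 0.33, not called. The STAT3-/-PD-1-/- libraries lay above the STAT3-/- ones in CD4+ T cells and overlapped them in CD8+ T cells. Imp3 and Imp4, which help the U3 small nucleolar RNA to pair with the precursor, were not called. Imp4 was at 94.7 and 83.4 (WT), 71.6 and 65.5 (STAT3-/-), and 84.1 and 99.2 CPM (STAT3-/-PD-1-/-) in CD4+ and at 93.7 and 80.2 (WT), 81.6 and 71.2 (STAT3-/-), and 89.1 and 104 CPM (STAT3-/-PD-1-/-) in CD8+ T cells, with a log2 fold change against STAT3-/- of 0.42 and 0.34. Imp3 was at 47.9 and 39.5 (WT), 49.8 and 36.5 (STAT3-/-), and 49.8 and 44.5 CPM (STAT3-/-PD-1-/-) in CD4+ and at 51.6 and 52.4 (WT), 46.9 and 48.6 (STAT3-/-), and 51.7 and 43.6 CPM (STAT3-/-PD-1-/-) in CD8+ T cells, with a log2 fold change of 0.13 and -0.0024. Nob1, the endonuclease of the last cut of the small subunit RNA, was at 44.8 and 41.0 (WT), 35.8 and 34.9 (STAT3-/-), and 45.0 and 51.4 CPM (STAT3-/-PD-1-/-) in CD4+ and at 44.8 and 43.1 (WT), 40.1 and 38.3 (STAT3-/-), and 48.5 and 52.8 CPM (STAT3-/-PD-1-/-) in CD8+ T cells, with a log2 fold change of 0.45 and 0.37. Of these, only Nop14 in CD8+ T cells was called. In all, 3 of 19 rose against STAT3-/- in CD4+ T cells (15.8%, where 6.05% of all genes rose). In CD8+ T cells 4 of 19 did (21.1%, where 8.76% of all genes rose), and the group had median log2 fold changes of 0.41 and 0.33 in CD4+ and CD8+.

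Of the groups by role with more than 1 member, the box C/D and box H/ACA proteins had the highest median: 0.75 in CD4+ and 0.88 in CD8+ T cells for STAT3-/-PD-1-/- against STAT3-/-, and 0.63 in each subset against WT. All 6 were higher in each of these 4 comparisons. Dkc1, the pseudouridine synthase of the H/ACA particles, was at 63.7 and 57.0 CPM in the WT, 68.3 and 51.8 in the STAT3-/- and 106 and 107 in the STAT3-/-PD-1-/- libraries in CD4+ T cells. Its levels in CD8+ T cells were 84.7 and 71.3 (WT), 78.3 and 70.1 (STAT3-/-), and 142 and 137 CPM (STAT3-/-PD-1-/-). STAT3-/- and WT libraries overlapped, and every STAT3-/-PD-1-/- library lay above them. Dkc1 rose in all 4 comparisons of STAT3-/-PD-1-/- T cells, against WT in CD4+ (log2 fold change 0.83, SE 0.17, adjusted p = 0.0243) and CD8+ (log2 fold change 0.84, SE 0.13, adjusted p = 0.00966), and against STAT3-/- in CD4+ (log2 fold change 0.83, SE 0.17, adjusted p = 0.0287) and CD8+ (log2 fold change 0.91, SE 0.13, adjusted p = 0.00882). Nolc1, a phosphoprotein that escorts small nucleolar ribonucleoproteins to the nucleolus, was at 89.8 and 87.2 (WT), 76.4 and 67.6 (STAT3-/-), and 127 and 145 CPM (STAT3-/-PD-1-/-) in CD4+ and at 116 and 89.8 (WT), 104 and 74.4 (STAT3-/-), and 165 and 177 CPM (STAT3-/-PD-1-/-) in CD8+ T cells. It too rose in all 4, with log2 fold changes of 0.62 and 0.74 against WT and 0.92 and 0.94 against STAT3-/- (adjusted p between 0.0143 and 0.0410).

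Fbl, the methyltransferase of the box C/D particles, was the lowest of the members in counts (102 to 268 per library). It was at 5.41 and 5.32 (WT), 6.08 and 4.54 (STAT3-/-), and 7.74 and 9.04 CPM (STAT3-/-PD-1-/-) in CD4+ and at 5.55 and 5.39 (WT), 6.79 and 4.20 (STAT3-/-), and 10.8 and 11.1 CPM (STAT3-/-PD-1-/-) in CD8+ T cells. The STAT3-/-PD-1-/- libraries were above all others in both, and in CD8+ T cells Fbl rose against WT (log2 fold change 1.00, SE 0.26, adjusted p = 0.0393) and STAT3-/- (log2 fold change 1.00, SE 0.26, adjusted p = 0.0410), while in CD4+ T cells the log2 fold change against STAT3-/- was 0.66 (adjusted p = 0.123). Nop58 and Nop56 are the paired core proteins of the same particles. Nop58 was at 136 and 93.5 (WT), 128 and 71.7 (STAT3-/-), and 174 and 183 CPM (STAT3-/-PD-1-/-) in CD4+ and at 165 and 137 (WT), 136 and 108 (STAT3-/-), and 216 and 221 CPM (STAT3-/-PD-1-/-) in CD8+ T cells, and rose in CD8+ against STAT3-/- (log2 fold change 0.85, SE 0.15, adjusted p = 0.0152). The log2 fold change in CD4+ T cells was about as large (0.84) but the STAT3-/- libraries were far apart and the adjusted p was 0.104. Nop56 was at 94.5 and 73.3 (WT), 84.4 and 60.9 (STAT3-/-), and 106 and 92.6 CPM (STAT3-/-PD-1-/-) in CD4+ and at 104 and 88.4 (WT), 93.5 and 84.9 (STAT3-/-), and 128 and 114 CPM (STAT3-/-PD-1-/-) in CD8+ T cells, with a log2 fold change of 0.45 and 0.43 against STAT3-/-. Nop10, a small H/ACA protein beside Dkc1, was at 33.95 and 28.8 (WT), 42.6 and 29.1 (STAT3-/-), and 47.6 and 41.3 CPM (STAT3-/-PD-1-/-) in CD4+ and at 39.5 and 49.0 (WT), 40.4 and 42.7 (STAT3-/-), and 61.7 and 54.1 CPM (STAT3-/-PD-1-/-) in CD8+ T cells, with a log2 fold change of 0.31 and 0.48. Neither Nop56 nor Nop10 was called.

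**Figure D2:**
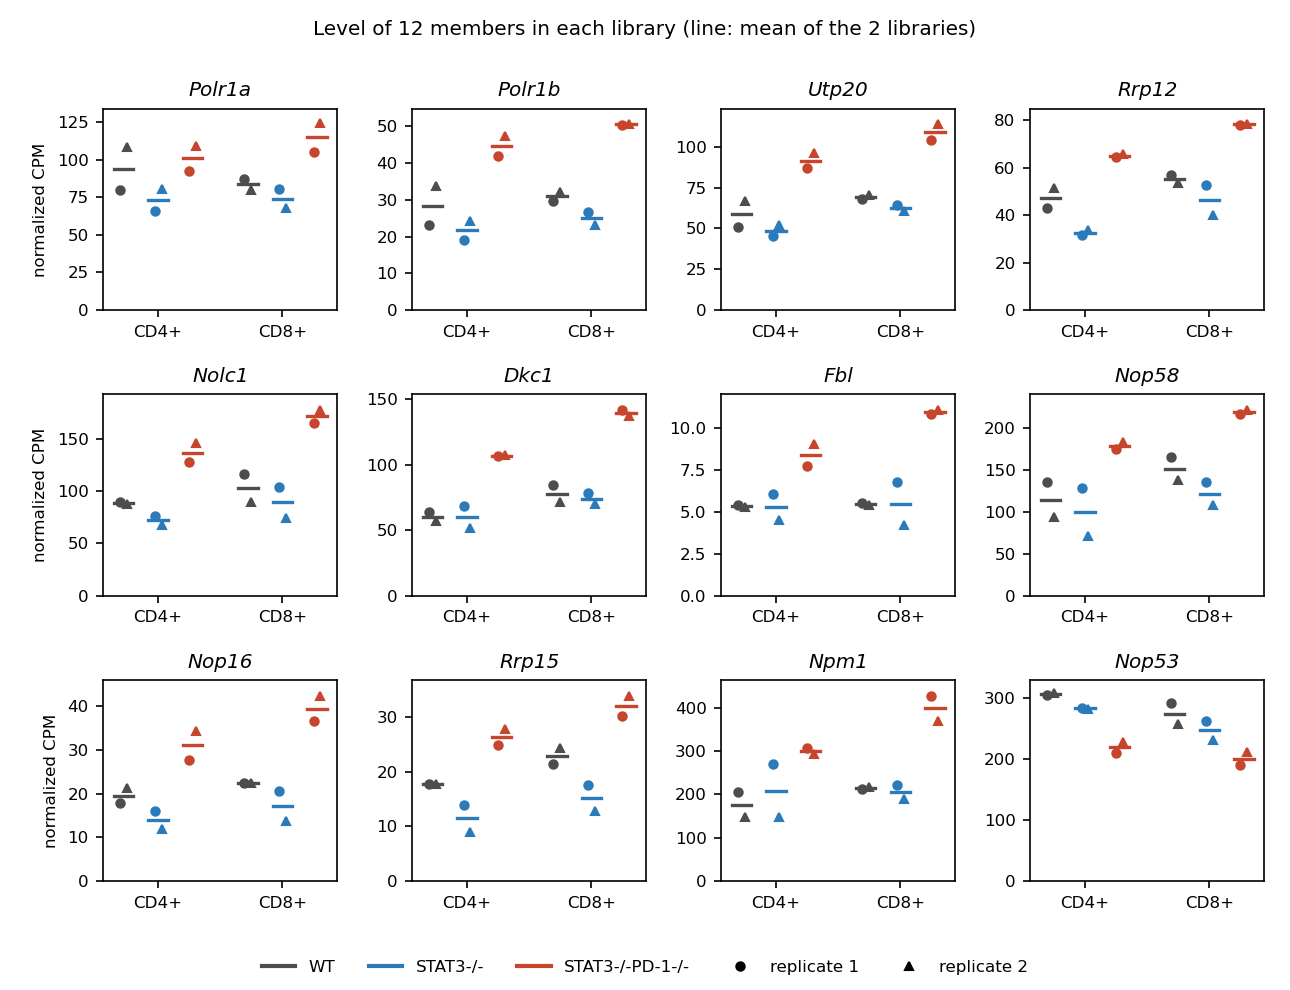
Normalized CPM (vertical axis, from 0) of 12 members in the CD4+ and CD8+ libraries of each genotype, 1 point per library and a line at the mean of the 2 libraries. The STAT3-/-PD-1-/- points lie above the others for Polr1b, Utp20, Dkc1 and Fbl in both subsets (Polr1b: 41.9 and 47.4 CPM in CD4+, 50.5 and 50.6 in CD8+), and below them for Nop53.

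Against STAT3-/-, large subunit assembly held the largest fold change of the members in each subset. Nop16, a factor of early large subunit precursors, was at 17.8 and 21.3 CPM in the WT, 16.05 and 12.01 in the STAT3-/- and 27.7 and 34.4 in the STAT3-/-PD-1-/- libraries in CD4+ T cells and at 22.3 and 22.5 (WT), 20.7 and 13.8 (STAT3-/-), and 36.6 and 42.3 CPM (STAT3-/-PD-1-/-) in CD8+ T cells. Every STAT3-/-PD-1-/- library exceeded the others. It rose against STAT3-/- in CD4+ (log2 fold change 1.15, SE 0.22, adjusted p = 0.0231) and CD8+ T cells (log2 fold change 1.19, SE 0.21, adjusted p = 0.0133), and against WT in CD8+ (log2 fold change 0.81, SE 0.20, adjusted p = 0.0350). Rrp15, another factor of these precursors, was at 17.8 and 17.6 (WT), 13.8 and 9.03 (STAT3-/-), and 24.8 and 27.7 CPM (STAT3-/-PD-1-/-) in CD4+ and at 21.3 and 24.2 (WT), 17.6 and 12.7 (STAT3-/-), and 30.2 and 33.7 CPM (STAT3-/-PD-1-/-) in CD8+ T cells. The 3 genotypes did not overlap in either subset, with STAT3-/- lowest, and Rrp15 rose against STAT3-/- in CD4+ (log2 fold change 1.199, SE 0.23, adjusted p = 0.0238) and CD8+ (log2 fold change 1.08, SE 0.19, adjusted p = 0.0143). Rrp1b, a nucleolar protein related to the assembly factor Rrp1, was at 51.6 and 85.4 (WT), 32.5 and 45.2 (STAT3-/-), and 60.2 and 74.7 CPM (STAT3-/-PD-1-/-) in CD4+ and at 67.3 and 78.3 (WT), 46.0 and 42.8 (STAT3-/-), and 75.4 and 86.1 CPM (STAT3-/-PD-1-/-) in CD8+ T cells, so that its WT libraries reached the STAT3-/-PD-1-/- level, and it was called in CD8+ T cells against STAT3-/-.

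The PeBoW complex and Nop2 were called in CD8+ T cells. Wdr12 was at 27.0 and 26.8 (WT), 28.9 and 29.4 (STAT3-/-), and 32.1 and 36.4 CPM (STAT3-/-PD-1-/-) in CD4+ and at 19.2 and 20.6 (WT), 18.7 and 18.6 (STAT3-/-), and 29.0 and 31.6 CPM (STAT3-/-PD-1-/-) in CD8+ T cells, and in the latter rose against WT (log2 fold change 0.61, SE 0.14, adjusted p = 0.0249) and STAT3-/- (log2 fold change 0.70, SE 0.14, adjusted p = 0.0187), with 0.23 in CD4+ (adjusted p = 0.355). Bop1 was at 60.3 and 66.3 (WT), 56.5 and 62.0 (STAT3-/-), and 84.9 and 84.1 CPM (STAT3-/-PD-1-/-) in CD4+ and at 81.0 and 69.0 (WT), 76.0 and 70.2 (STAT3-/-), and 101 and 109 CPM (STAT3-/-PD-1-/-) in CD8+ T cells. Bop1 rose in CD8+ T cells against WT (log2 fold change 0.48) and STAT3-/- (0.52), and in CD4+ the change was as large (0.51, adjusted p = 0.0615). Pes1 was at 60.5 and 57.2 (WT), 54.4 and 44.6 (STAT3-/-), and 69.7 and 75.6 CPM (STAT3-/-PD-1-/-) in CD4+ and at 72.5 and 68.0 (WT), 61.9 and 56.0 (STAT3-/-), and 82.4 and 88.3 CPM (STAT3-/-PD-1-/-) in CD8+ T cells, with a log2 fold change against STAT3-/- of 0.53 in CD8+, where it rose, and 0.55 in CD4+. Nop2, a methyltransferase of the large subunit RNA, was at 42.5 and 48.8 (WT), 35.9 and 41.8 (STAT3-/-), and 64.5 and 54.9 CPM (STAT3-/-PD-1-/-) in CD4+ and at 50.5 and 47.96 (WT), 43.7 and 41.8 (STAT3-/-), and 77.3 and 63.0 CPM (STAT3-/-PD-1-/-) in CD8+ T cells, and rose in CD8+ T cells against WT (0.51) and STAT3-/- (0.71), with 0.62 in CD4+ T cells (adjusted p = 0.0571). Of the 10 members of the large subunit group 2 rose against STAT3-/- in CD4+ T cells (20%, where 6.05% of all genes rose). In CD8+ T cells 7 did (70%, where 8.76% of all genes rose), and the medians were 0.53 and 0.62 in CD4+ and CD8+.

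Nop53, chosen after its values were seen because it was lower in STAT3-/-PD-1-/- T cells of both subsets, brings the exosome to the large subunit precursor, and had the highest level of the set per length (median 169 RPKM). It was at 305 and 307 CPM in the WT, 284 and 281 in the STAT3-/- and 210.0 and 228 in the STAT3-/-PD-1-/- libraries in CD4+ T cells and at 291 and 257 (WT), 262 and 231 (STAT3-/-), and 189.7 and 211 CPM (STAT3-/-PD-1-/-) in CD8+ T cells. All STAT3-/-PD-1-/- libraries lay below all others of their subset. The log2 fold change was -0.48 and -0.45 against WT and -0.37 and -0.30 against STAT3-/- in CD4+ and CD8+ T cells, and no adjusted p was under 0.05 (0.0531, 0.0503, 0.116 and 0.142). Other fits called it lower: against WT in both subsets with DESeq2 and with the replicate block, in CD4+ T cells with RLE normalization and in CD8+ T cells with a minimum of 1 count, and against STAT3-/- in CD4+ T cells with the replicate block. In CD8+ T cells 2 small subunit factors, Rrp36 (-0.23) and Utp3 (-0.13), also lay lower than in STAT3-/- without overlap, as did Utp23 (-0.23) in CD4+ T cells, and none of these was called.

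Npm1, the abundant nucleolar chaperone that binds ribosomal precursors, had the next highest level per length (median 130 RPKM). Its CD4+ levels were 205 and 148 CPM in the WT, 269 and 147 in the STAT3-/- and 308 and 294 in the STAT3-/-PD-1-/- libraries, and those of CD8+ T cells 212 and 217 CPM in the WT, 223 and 189 in the STAT3-/- and 428 and 369 in the STAT3-/-PD-1-/- libraries. The CD8+ STAT3-/-PD-1-/- libraries stood well apart, and Npm1 rose there against WT (log2 fold change 0.89, SE 0.13, adjusted p = 0.00810) and STAT3-/- (log2 fold change 0.96, SE 0.13, adjusted p = 0.00766). Replicate 1 of Npm1 in CD4+ T cells was above replicate 2 in each genotype, and the log2 fold change against STAT3-/- was 0.53 (adjusted p = 0.261). The counts of Npm1, Fbl, Imp3, Nop56, Pes1, Rrp7a and Wdr12 are uncertain in that each has 1 to 4 annotated pseudogene copies with at least 95% identity over at least 200 bases, so that counting may have split their reads. Another annotated gene overlaps 14 of the 41 members. The 6 most abundant of these genes lie on the opposite strand, where reads cannot be told apart without strand: Ilk over Rrp8 (796 bases, and a median of 2982 counts against 892 for Rrp8), Serhl over Rrp7a (826 bases), Carf over Wdr12 (254 bases), Mroh1 over Bop1 (52 bases), Mpp1 over Dkc1 (44 bases) and Idh3b over Nop56 (5 bases). The other overlapping genes had a median of at most 36 counts.

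The 15 members whose levels are not given above (Polr1c, Polr1d, Utp3, Utp6, Utp11, Utp14a, Utp18, Utp23, Utp25, Rrp7a, Rrp9, Rrp36, Nop9, Rrp1 and Rrp8) were called in none of the 6 comparisons. Their levels ran from 19.5 CPM (Utp25, CD4+ STAT3-/- replicate 1) to 241 CPM (Rrp1, CD8+ STAT3-/-PD-1-/- replicate 2).

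**Figure D3:**
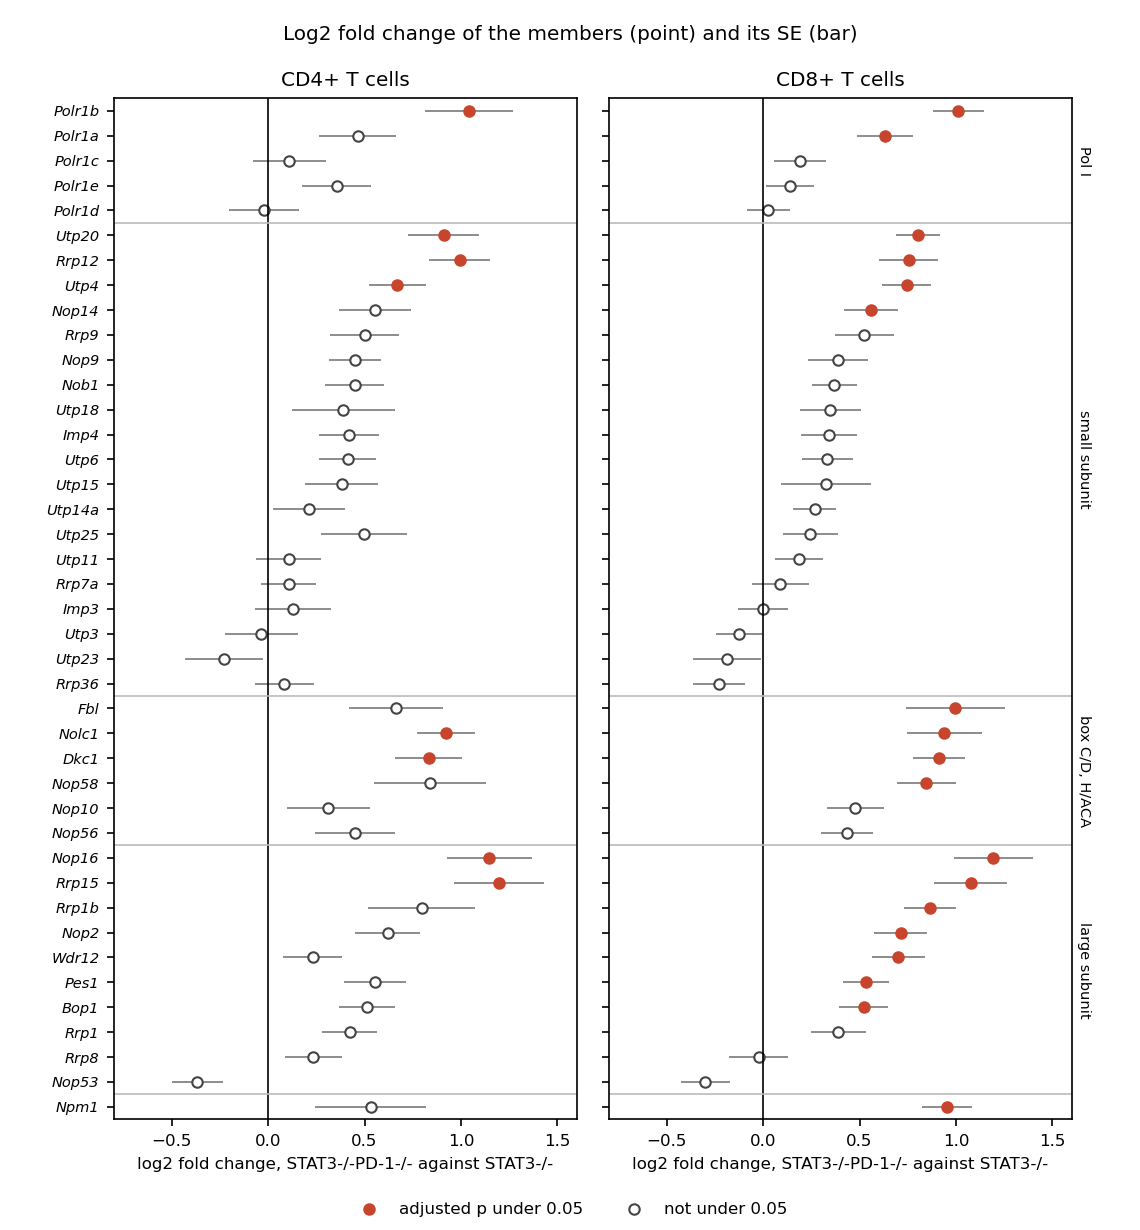
Log2 fold change (horizontal axis) of STAT3-/-PD-1-/- against STAT3-/- T cells for each of the 41 members, with its SE as a bar, in CD4+ (left) and CD8+ (right) T cells; filled points are those with an adjusted p under 0.05. There are 8 filled points in CD4+ and 18 in CD8+ T cells, all to the right of 0, and Nop53 lies to the left at -0.37 and -0.30.

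More members were called in CD8+ than in CD4+ T cells, but the difference between the subsets was not shown by its own test, and with the replicate block the order against STAT3-/- turned (24 called in CD4+, 23 of them higher, and 21 in CD8+). In a fit over all 12 libraries, no member had a fold change that differed between CD8+ and CD4+ T cells at an adjusted p under 0.05 in edgeR's test, for any of the 3 contrasts of genotype. At an unadjusted p under 0.05 there were 0, 0 and 1 members for STAT3-/- against WT, STAT3-/-PD-1-/- against WT and STAT3-/-PD-1-/- against STAT3-/-, the 1 being Wdr12 (a difference of 0.48 on the log2 scale, SE 0.17, unadjusted p = 0.0191). Over all 12334 genes in that fit, which held no block, 0, 1 (0.00811%) and 0 were called. With the replicate block 28 were called for STAT3-/-PD-1-/- against WT. A block for the shared pool of recipients gave 84 against WT and 22 against STAT3-/-, and no member was among any of these. The median difference between the subsets over the members was 0.09, 0.06 and 0.01 for the 3 contrasts in the same order.

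Genes outside the set that belong to the same pathway were mostly higher in STAT3-/-PD-1-/- than in STAT3-/- T cells, with fewer calls against WT. Of 85 other biogenesis factors on a list of known ones, 81 were higher in STAT3-/-PD-1-/- than in STAT3-/- T cells in each subset, and the median log2 fold change was 0.47 in both. In CD4+ T cells 19 rose (22.4%, where 6.05% of all genes rose), in CD8+ T cells 34 rose (40%, where 8.76% did), and none fell. With DESeq2 30 were called in CD4+ T cells, and with the replicate block 44. The count also depended on which libraries entered, as with the members: without STAT3-/-PD-1-/- replicate 2 there were 0 in each subset, without its replicate 1 there were 0 and 5, and without STAT3-/- replicate 2 there were 2 and 2, but without STAT3-/- replicate 1 there were 25 in each. Among CD4+ T cells Nle1 (1.14), a large subunit factor, Rcl1 (1.08), of the small subunit processome, and Shq1 (1.02), an H/ACA assembly factor, changed most (log2 fold changes in parentheses). For CD8+ T cells these were Rcl1 (1.08), Nle1 (1.03) and Rpf2 (0.97), which helps to place the small ribonucleoprotein of the large subunit. Against WT 2 rose in CD4+ T cells, Lyar (0.97) and Gar1 (0.87), an H/ACA protein, which is 2.35%, where 7.21% of all genes rose. There 75 of 85 were higher, with a median of 0.27. In CD8+ T cells 12 rose (14.1%, where 9.01% of all genes did), led by Gar1 (0.99), Lyar (0.80) and Wdr46 (0.65), and 76 were higher, with a median of 0.32. These counts depended on the fit in both directions: with any 1 library of that comparison left out 0 to 1 and 0 to 5 were called in CD4+ and CD8+ T cells, with DESeq2 7 and 19, with library totals 5 and 25, and with the replicate block 17 and 20. Against WT, STAT3-/- T cells had none called with edgeR (DESeq2 called 1 in CD4+ and 3 in CD8+, and the replicate block 1 in CD4+), with 15 of 85 higher and a median of -0.20 in CD4+, and 11 higher and -0.16 in CD8+.

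Among 10 initiation factors and polymerase I subunits known by older names, Cd3eap, a subunit despite its symbol, was the only one called, and rose against STAT3-/- in CD4+ (log2 fold change 0.86, SE 0.19, adjusted p = 0.0320) and CD8+ T cells (log2 fold change 1.09, SE 0.19, adjusted p = 0.0139). That is 10% of the list in each subset, where 6.05% of all genes rose in CD4+ and 8.76% in CD8+ T cells. Among the RNA polymerase III subunits reported here, Polr3g rose against STAT3-/- in CD4+ (0.93) and CD8+ T cells (1.21), and Polr3k in CD8+ T cells (0.58). Among 13 RNA polymerase II subunits only Polr2f rose against STAT3-/- in each subset. That is 7.69%, near the share of all genes that rose (6.05% in CD4+ and 8.76% in CD8+ T cells). Against WT 4 were called in CD8+ T cells (30.8%, where 9.01% of all genes rose), led by Polr2e (0.62), Polr2f (0.60) and Polr2a (0.54). There 10 of the 13 were higher, with a median of 0.19. In CD4+ T cells against WT none was called, but all 13 were higher, with a median of 0.34. Of the RNA exosome, which trims ribosomal precursors, Dis3, a catalytic subunit, was called in all 4 comparisons of STAT3-/-PD-1-/- T cells (0.74 and 0.80 against WT, 1.14 and 1.06 against STAT3-/-, in CD4+ and CD8+). All 14 exosome genes tested were higher against STAT3-/- in each subset, with medians of 0.44 and 0.33. Of these 3 rose in each subset (21.4%, where 6.05% and 8.76% of all genes rose). Against WT 14 and 12 were higher, with medians of 0.32 and 0.25. There 2 (14.3%) and 1 (7.14%) rose, where 7.21% and 9.01% of all genes did.

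Myc itself was called nowhere. It was at 76.2 and 65.7 CPM in the WT, 79.7 and 43.6 in the STAT3-/- and 97.6 and 57.4 in the STAT3-/-PD-1-/- libraries in CD4+ T cells and at 68.8 and 50.1 (WT), 79.3 and 43.9 (STAT3-/-), and 98.7 and 56.8 CPM (STAT3-/-PD-1-/-) in CD8+ T cells. In every genotype and subset replicate 1 was above replicate 2, and the genotypes overlapped, with a log2 fold change against STAT3-/- of 0.33 (SE 0.33) in CD4+ and 0.34 (SE 0.34) in CD8+ T cells. Between libraries of the same replicate number it was higher in STAT3-/-PD-1-/- than in STAT3-/- each time, by 0.29 and 0.39 on the log2 scale in CD4+ and by 0.32 and 0.37 in CD8+ T cells. Against WT the numbers did not agree in this way. Myc in STAT3-/- was above WT in replicate 1 and below it in replicate 2 of both subsets. In STAT3-/-PD-1-/- it was above WT in both replicates of CD8+, but in CD4+ only in replicate 1. Of the MYC network, Mxd4, which competes with MYC for its partner MAX, fell in STAT3-/-PD-1-/- against STAT3-/- T cells in CD4+ (log2 fold change -1.22, SE 0.16, adjusted p = 0.00865) and CD8+ (log2 fold change -0.80, SE 0.22, adjusted p = 0.0477), and Mxd3 fell in CD8+ T cells (-0.70).

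**Figure D4:**
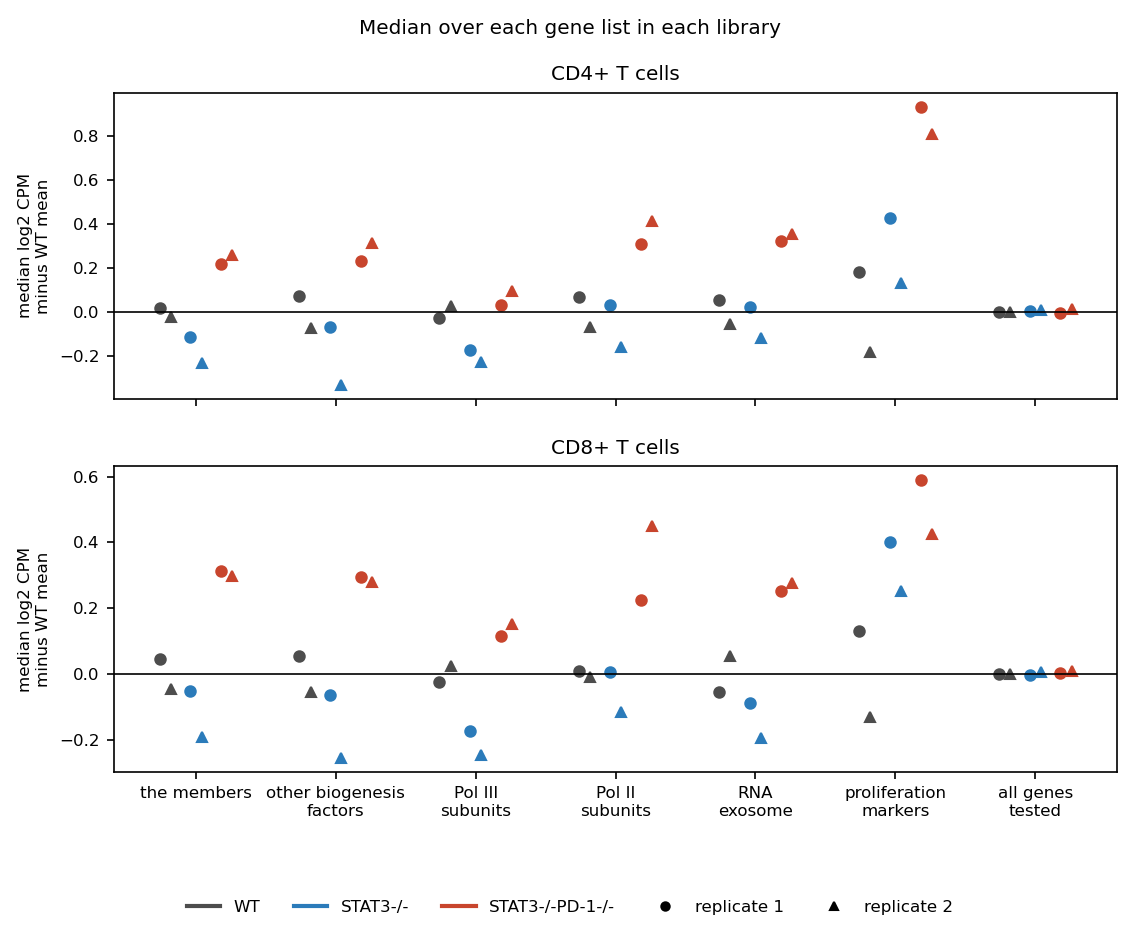
Median log2 of CPM over the WT mean (vertical axis) for the members, other gene lists and all genes, 1 point per library, with CD4+ T cells in the upper and CD8+ T cells in the lower panel. The members and the other biogenesis factors stand above WT in the STAT3-/-PD-1-/- libraries (members 0.22 and 0.26 in CD4+, 0.31 and 0.30 in CD8+). So do the proliferation genes. The RNA polymerase II subunits (0.31 and 0.42 in CD4+, 0.23 and 0.45 in CD8+) stand above WT as well. The same holds for the RNA exosome (0.32 and 0.36 in CD4+, 0.25 and 0.28 in CD8+), while all genes stay near 0.

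Other measured features moved with the members. Of 6 proliferation genes, 5 rose in STAT3-/-PD-1-/- against WT CD4+ T cells, where 7.21% of all genes did (led by Mcm5 at 1.13, Ccnb1 at 0.98 and Cdk1). In CD8+ T cells 3 rose, where 9.01% of all genes did (Mcm5 at 0.77, Mki67 at 0.56 and Ccnb1). Against STAT3-/- 3 rose in CD4+ T cells, where 6.05% of all genes did (Mcm5 at 0.87, Mki67 at 0.52 and Mcm2). None rose in CD8+ T cells, where 18 members did. Their summed level was 3126 and 2449 CPM in WT, 3613 and 3280.0 in STAT3-/- and 5052 and 4676 in STAT3-/-PD-1-/- CD4+ libraries. In CD8+ libraries it was 4285 and 3598 CPM, 5658 and 5228, and 5758 and 5286, so that in both subsets STAT3-/- lay above WT in these genes and below it in the members. The median of 6 T cell genes relative to WT was -0.27 and -0.32 in the STAT3-/-PD-1-/- libraries of CD4+ and -0.41 and -0.43 in those of CD8+ T cells, with Cd2 lower in both subsets against WT, and Lck and Cd3d lower in CD8+. Cd8a and Cd8b1 fell in STAT3-/-PD-1-/- CD8+ T cells (-1.09 and -0.87 against WT, -0.89 and -0.95 against STAT3-/-), as did Cd2 and Lck there against STAT3-/- (-0.57 and -0.36), and Cd4 fell in STAT3-/-PD-1-/- CD4+ T cells (-0.52 against WT). The part of these in the result was not tested.

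Markers of other cells of the liver were low. The summed B cell list (4 genes, 1 of them tested) was at 14.6 and 10.7 CPM in WT, 12.6 and 13.9 in STAT3-/- and 6.04 and 5.30 in STAT3-/-PD-1-/- CD8+ libraries, nearly all of it Cd79b, and at least 1 of the 4 was at 0 in every library. The macrophage list (6 genes, 4 tested) was at 29.6 and 34.1, 27.4 and 31.6, and 17.4 and 19.1 CPM in the same libraries, mainly Cd68. Cd79b and Cd68 were called lower in STAT3-/-PD-1-/- CD8+ T cells against WT and against STAT3-/- (-1.23 and -0.63 against STAT3-/-), and their part in the result was not tested. In CD4+ libraries the lists summed to 1.65 to 2.32 and 6.45 to 13.9 CPM. The 8 hepatocyte genes summed to between 0.835 and 3.02 CPM per library, with Apoa2 highest, and the 4 erythroid genes were listed at 0 in all 12. The endothelial list was almost wholly Pecam1, which T cells express too.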

How the data were processed

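RNA-Seq of sorted liver T cells was aligned to mm10 with STAR and counted on RefSeq genes with HTSeq-count, and the authors deposited counts per gene without normalization (whether counting used strand is not given in the sources used here). RPKM values, which the authors deposited beside the counts, were used for levels between genes and for 1 alternative (limma 3.58.1 on log2 of RPKM + 1). The labels also hold a protocol for another kind of culture, which was not used. Counts were tested per subset, over its 6 libraries, with edgeR 4.0.16 in R 4.3.3: genes kept at a minimum count of 10 (total 15), TMM normalization, quasi-likelihood test, Benjamini-Hochberg adjustment over all genes kept, 3 residual degrees of freedom. A fit over 12 libraries (6 residual degrees of freedom) gave the difference between subsets. Row names of 26 genes read as dates, and 4 genes share a name. DESeq2 1.42.0 was an alternative. The method was also tested on simulated counts, but the outcome is not given here and no result above draws on it. Pseudogene copies were found with BLAST+ 2.17.0. Named members were 22 fixed for their role, and per comparison up to 3 called members that changed most in each direction without overlap, or the 2 of lowest p where none was called. From the other lists, up to 3 called genes of largest change were named. The members, lists and tests were chosen with earlier results of these data known. Alternatives were other normalizations, filters, tests and left-out libraries. Some results of the other lists are not reported here.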

Additional observations from a re-analysis of the deposited data

How the results depend on the processing

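The direction of the members' median was the same under every alternative run, in all 6 comparisons. With library totals in place of TMM it moved to 0.28 (CD4+) and 0.40 (CD8+) for STAT3-/-PD-1-/- against WT, and to 0.53 and 0.52 against STAT3-/-. Leaving out 1 library gave medians of -0.23 to -0.12 and -0.20 to -0.054 for STAT3-/- against WT, 0.20 to 0.26 and 0.23 to 0.38 for STAT3-/-PD-1-/- against WT, and 0.35 to 0.50 and 0.36 to 0.56 against STAT3-/-, in CD4+ and CD8+ T cells. The calls depend more on the fit. In the same order the members called ran from 0 to 0 and 0 to 0, from 0 to 0 and 0 to 3, and from 0 to 7 and 0 to 13, and all genes called from 9 to 49 and 0 to 2, from 62 to 676 and 111 to 1107, and from 0 to 1185 and 2 to 1194.

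The study's methods describe batches for the receptor sequencing of sorted T cells. For liver T cells isolated for RNA-Seq and other assays, a figure legend of the paper gives at least 2 replicate experiments as the source. No source used here ties the replicate number of an RNA-Seq library to a batch or experiment. The serial numbers in the sample titles form 2 runs, 1 for each replicate number, so a batch shared by same-numbered libraries is possible. Deviations of same-numbered libraries correlated across genes with r = 0.834, 0.392 and 0.225 in CD4+ and 0.842, 0.189 and 0.0352 in CD8+ T cells (WT with STAT3-/-, WT with STAT3-/-PD-1-/-, and STAT3-/- with STAT3-/-PD-1-/-). With only 2 numbers in each group the fit without the block was kept. With the replicate block, members called in CD4+ T cells numbered 1 (Rrp1b, lower) for STAT3-/- against WT, 12 for STAT3-/-PD-1-/- against WT (11 higher) and 24 against STAT3-/- (23 higher), Nop53 being the lower member in both, and all genes called 303, 3104 and 3105; in CD8+ T cells the members numbered 0, 14 (13 higher) and 21 (all higher). With this block the difference between subsets was called for 28 genes, and with a block for the shared pool for 84 (against WT) and 22 (against STAT3-/-), none of them a member. DESeq2 called 5 members in CD4+ T cells against WT, 15 against STAT3-/- and 1 in CD8+ STAT3-/- against WT, and 271, 2100 and 218 genes in all for CD4+ STAT3-/- against WT, CD4+ STAT3-/-PD-1-/- against STAT3-/- and CD8+ STAT3-/- against WT. A fit of only the 4 libraries compared called 4 members in CD4+ T cells against WT, and 1 and 0 genes in all for STAT3-/- against WT in CD4+ and CD8+. In that comparison a minimum of 1 count gave 165 and 66 genes, at least 10 counts in every library 16 and 1, and library totals 1 in CD8+. The cause of these shifts was not tested. Imp3, near 0 in STAT3-/-PD-1-/- against STAT3-/- CD8+ T cells, reversed with library totals (0.079), with 10 counts in every library (0.012) and with RPKM (0.0057); with a library left out it ran from -0.15 to 0.11, and in CD4+ T cells from -0.082 to 0.37. Depth limited Fbl most, at 102 to 268 counts.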
